A study of Drosophila melanogaster with 7 samples.

Results

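The glutathione S-transferase (GST) genes of Drosophila melanogaster were followed in sorted intestinal stem cells with and without overexpression of Sc, the product of scute (sc), a proneural transcription factor. The members were all rows of the deposited gene table whose symbol began with Gst and a class letter, 35 of 17481 genes. By class these were 11 GstD (delta), 14 GstE (epsilon), 3 GstO (omega), 1 GstS (sigma), 4 GstT (theta) and 2 GstZ (zeta) genes. RNA came from GFP-labelled stem cells that had been sorted from elastase-digested midguts of adults at day 2, about 10000 cells a sample, and it was amplified before sequencing. The Ctrl group held 3 libraries labelled wild type, and the ScOE group held 4 libraries labelled as overexpressing Sc. The driver and transgene behind the overexpression, the construct that carried GFP and the number of flies pooled are not given in the sources used here. Since nothing states that libraries of a group came from separate sets of animals, the p-values below reflect the spread among libraries, which may in part be technical.

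GSTs join the tripeptide glutathione to reactive or lipophilic compounds, which makes these compounds more soluble and marks them for export. The delta and epsilon classes are the insect-specific part of the family and are known for insecticide resistance and for handling products of oxidative damage. In the fly gut, reporters built on gstD regulatory DNA are widely used to read the activity of CncC, the counterpart of mammalian Nrf2, and redox state is known to bear on stem cell division there.

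The sc gene checked the labels. It was at 2.44, 0.978 and 0.886 FPKM (fragments scaled to transcript length and to mapped fragments) in Ctrl 1 to 3 and at 190, 122, 170 and 66.0 FPKM in ScOE 1 to 4. By an exact permutation test, two-sided, on log2(FPKM + 1), p was 0.0286, the lowest that 3 against 4 libraries allow. The stem cell marker esg was present in all libraries (213 to 362 FPKM), and as deposited none of the 5 stem cell markers tested rose while 1, Sox21a, fell. Dl rose with quantile normalization, upper quartile scaling and equal totals (1.26, 1.30 and 1.95 on the log2 scale, against 1.13 and no call as deposited), and mira rose with equal totals (0.84). Summed FPKM of 8 enteroendocrine markers was 69.6 to 672 in Ctrl and 2113 to 6109 in ScOE; 7 of the 8 rose and none was at 0. Summed FPKM of 13 enterocyte markers spread widely inside each group (810, 3725 and 27442 in Ctrl 1 to 3, and 532, 5597, 3813 and 10260 in ScOE 1 to 4), and of these markers only Myo31DF passed the test, falling (neither Sox21a nor Myo31DF passed with equal totals). Summed hemocyte markers were 87.2 to 135 FPKM in Ctrl and 47.9 to 59.4 in ScOE, mostly from crq, which fell (not with equal totals). Hml, He and eater were at or below 0.424, and NimC1 at or below 1.15. Sr-CI went the other way (0.74 on the log2 scale) but was not called as deposited. It rose with upper quartile scaling, trimmed-mean scaling and equal totals (0.87, 0.79 and 1.33). Of 4 fat body markers only Lpin was tested (49.9 to 95.9 FPKM in Ctrl, 70.2 to 96.4 in ScOE). Lpin was not called as deposited (0.22) but rose with equal totals (1.08). Summed Malpighian tubule markers were 7.25 to 7.74 FPKM in Ctrl and 10.9 to 16.0 in ScOE (4 genes, of which ZnT35C rose, and Uro was at most 0.817), and summed trachea markers 3.36 to 4.68 and 1.24 to 2.46 (4 genes, of which 1 fell). Visceral muscle markers summed to 169 FPKM in ScOE 3 and to between 1.10 and 10.8 in the other 6 libraries. In bulk samples, fewer cells of a type and less RNA per cell cannot be told apart, and the part of these other cell types in any result below was not tested beyond the fit with the enterocyte markers given with the epsilon class. Total FPKM was 1924960 to 2614340 in Ctrl and 1059340 to 1382540 in ScOE, the number of reads behind it is unknown, and directions of small changes depended on whether these totals were made equal. A single row, CR40469, held 22.9% to 29.5% of the total in Ctrl and 12.4% to 21.7% in ScOE. Results with equal totals therefore depend in part on this row.

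Of the 35 members, 31 were at 1 FPKM or more in 3 libraries or more, the filter applied to every gene, and entered the limma test on log2(FPKM + 1). At a Benjamini-Hochberg adjusted p under 0.05, 13 of the 31 changed, or 41.9%, where 39% of all tested genes did, so the share of members called lay near the background. The 3 that rose (9.68% of members, against 17.6% of all tested genes) were GstZ2, GstD5 and GstD6. The 10 that fell (32.3%, against 21.3%) were GstE1, GstE2, GstE11, GstE12, GstE13, GstS1, GstT1, GstT2, GstT3 and GstZ1. The groups did not overlap for 15 members (48.4%, against 46.3%). The median log2 fold change over the 31 members was -0.10, and that over all 8421 tested genes was -0.08. This genome-wide median was 0.08 with upper quartile scaling, -0.05 with quantile normalization, -0.02 with trimmed-mean scaling and 0.68 with equal FPKM totals. With equal totals 10 members rose and 2 fell, beside 4454 (52.9%) and 280 (3.33%) of all tested genes, for which the split was 1484 and 1796 as deposited and 1916 and 1251 with upper quartile scaling. All 3 rising members stayed called with equal totals, which adds little, since that scaling raised values genome-wide. Of the 10 falling members, all lay below the genome-wide median under each of these 5 scalings. A factor per library moves all genes nearly alike, so for members picked as falling this was largely fixed beforehand. With equal totals only GstE1 and GstE11 of the falling members were called, and GstE12, GstT1 and GstT3 had values above 0.

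**Figure D1:**
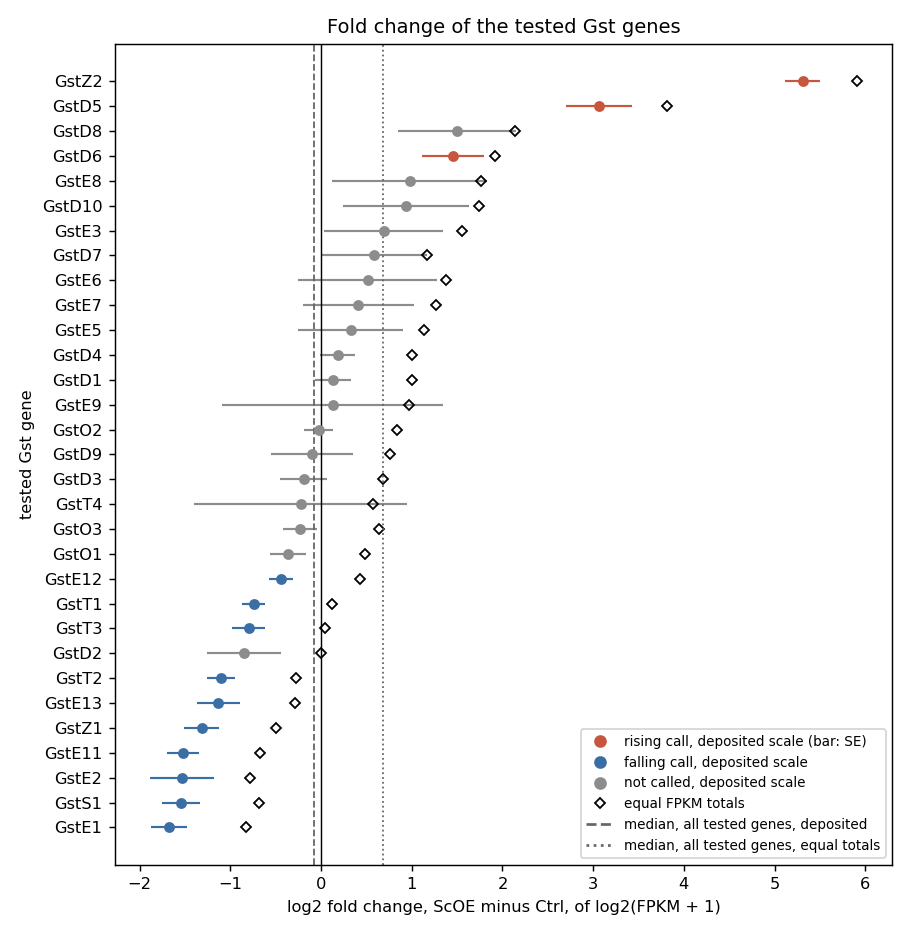
Log2 fold change (ScOE minus Ctrl, on log2(FPKM + 1)) of the 31 tested members, ordered by size; filled points with SE bars (n = 3 and 4) are at the deposited scale, diamonds with equal FPKM totals, and vertical lines mark the medians of all tested genes. GstZ2 and GstD5 lie far to the right at both scales, while with equal totals only GstE1 and GstE11 of the 10 falling members stay called and GstE12, GstT1 and GstT3 cross 0.

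The zeta class held the largest rise of the family beside a fall of its immediate neighbour. Zeta GSTs are known from mammals as maleylacetoacetate isomerase, an enzyme of tyrosine and phenylalanine breakdown. GstZ2 (FBgn0037697, BDGP6 chromosome 3R, 9456815 to 9460652, minus strand) was at 0.554, 1.15 and 1.50 FPKM in Ctrl 1 to 3 and at 72.2, 91.5, 87.4 and 70.0 FPKM in ScOE 1 to 4. Every ScOE library was thus far above every Ctrl library, and the ScOE libraries lay close together. The mean went from 1.07 ± 0.478 (SD, n = 3) to 80.3 ± 10.8 FPKM (SD, n = 4), or 75.1-fold. The log2 fold change was 5.31 ± 0.19 (SE), with an adjusted p of 6.38e-06 in limma, and GstZ2 was called under all 22 alternatives refitted at the same threshold. Since Ctrl 1 was under 1 FPKM, GstZ2 passed the filter on low values only with its ScOE libraries, so a difference was partly built into its selection, and without any filter its adjusted p was 6.1e-05. The size of the log2 value depends on the pseudocount, from 3.81 with 5 to 6.19 with 0.1.

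GstZ1 (FBgn0037696, 3R, 9455517 to 9456546, minus strand) ends 268 bp from GstZ2 and moved the other way. It was at 28.7, 24.8 and 20.3 FPKM in the Ctrl libraries and at 11.6, 9.51, 9.44 and 6.84 FPKM in the ScOE libraries, without overlap. The log2 fold change of GstZ1 was -1.31 ± 0.19 (adjusted p = 0.00195, limma), and with equal totals it was -0.50 and not called (adjusted p = 0.107). The ratio of the GstZ2 to the GstZ1 level, which no scaling by 1 factor per library touches, was 0.019, 0.047 and 0.074 in Ctrl and 6.23, 9.62, 9.26 and 10.2 in ScOE. GstZ1 was therefore the main zeta transcript in each Ctrl library and GstZ2 in each ScOE library.

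**Figure D2:**
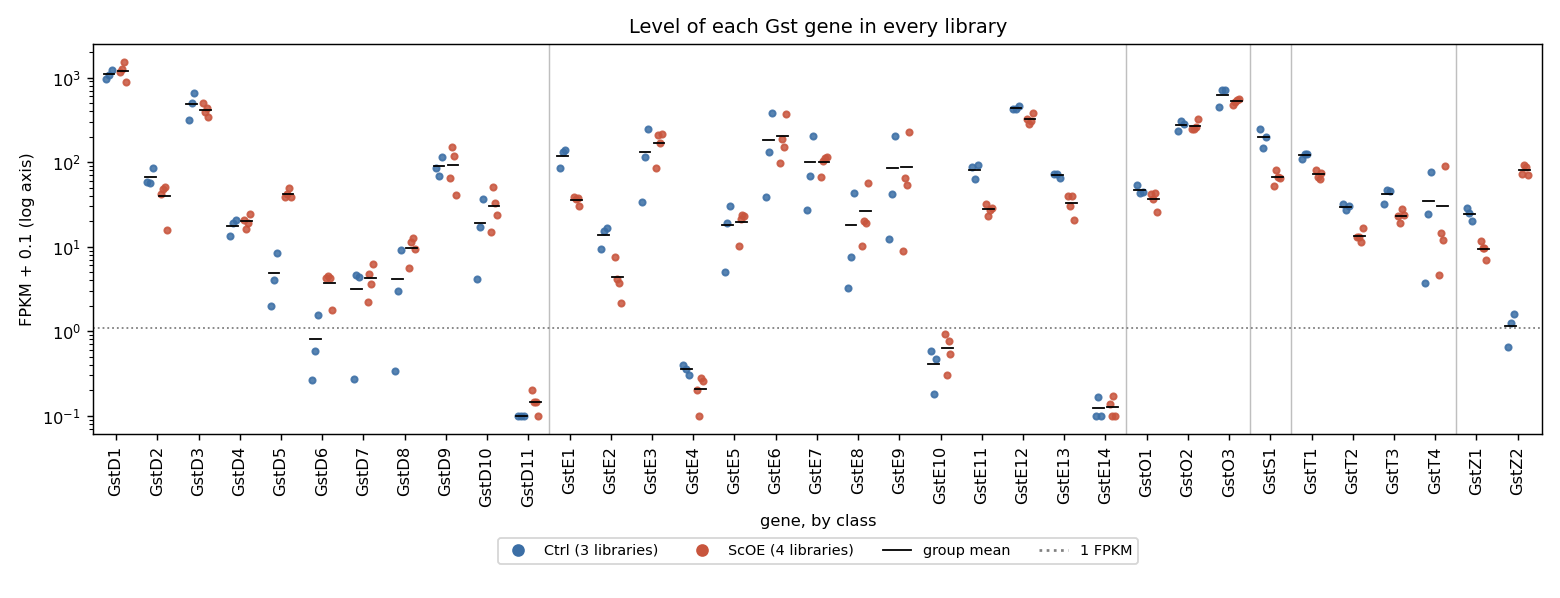
FPKM + 0.1 of the 35 members on a log axis, by class; points are Ctrl and ScOE libraries, dashes are group means, and the dotted line marks 1 FPKM. The GstZ2 points of the groups stand apart (at most 1.50 FPKM in Ctrl, at least 70.0 in ScOE), those of GstD1 overlap (968 to 1236 in Ctrl, 891 to 1541 in ScOE), and GstE3 and GstE5 to GstE9 spread widely inside the Ctrl group.

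The delta genes lie together in 20.8 kb of chromosome 3R (12364776 to 12385624). Of the 10 tested there 2 rose, 8 were not called and none fell, where 17.6% of all tested genes rose and 21.3% fell. With so few genes the class counts say little against these shares. GstD5 (FBgn0010041, 12375733 to 12376572, plus strand) was at 1.89, 3.98 and 8.41 FPKM in Ctrl and at 38.8, 41.7, 49.4 and 38.6 FPKM in ScOE. Its lowest ScOE library was well above its highest Ctrl library. The mean rose 8.85-fold, from 4.76 ± 3.33 (SD, n = 3) to 42.1 ± 5.09 FPKM (SD, n = 4). This change of 3.06 ± 0.36 on the log2 scale had an adjusted p of 0.000778 in limma. The neighbouring gene on its upstream side, GstD4 (12374100 to 12374824, plus strand), was at 13.3, 18.9 and 20.6 FPKM in Ctrl and at 20.5, 16.1, 19.2 and 24.1 FPKM in ScOE, and these ranges overlap. GstD4 was not called as deposited (0.18, adjusted p = 0.497, limma) but rose with equal totals (1.00, adjusted p = 0.00497). Within each library the GstD5 level was 0.142, 0.210 and 0.409 times that of GstD4 in Ctrl and 1.89, 2.59, 2.57 and 1.60 times in ScOE.

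On the other side of GstD5, GstD6 (12377128 to 12377907, plus strand) was at 0.167, 0.478 and 1.46 FPKM in Ctrl and at 4.12, 4.46, 4.11 and 1.70 FPKM in ScOE. The groups did not overlap, though the gap between Ctrl 3 and ScOE 4 was small. Its log2 fold change was 1.45 ± 0.34 (adjusted p = 0.0136, limma), and it was not called without both libraries numbered 1 (1.15, adjusted p = 0.0763). The log2 value was 0.59 with a pseudocount of 5 and 2.48 with 0.1. Of the tested members GstD6, GstD7, GstD8 and GstZ2 had a Ctrl library under 1 FPKM and passed the filter only with ScOE libraries, so for these 4 a difference was partly built into the selection. Without any filter the adjusted p of GstD6 was 0.0308.

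GstD1, a gene long known for DDT breakdown and as the model of antioxidant reporter activity, had the highest level per length of the family in every library. It was at 968, 1071 and 1236 FPKM in Ctrl and at 1156, 1257, 1541 and 891 FPKM in ScOE, and the ranges overlap. The GstD1 log2 fold change was 0.13 ± 0.20 and was not called (adjusted p = 0.646, limma), but it passed with quantile normalization (0.68, adjusted p = 0.0249) and with equal totals (1.00, adjusted p = 0.00573). GstD3, the next delta gene by level, was at 318, 504 and 650 FPKM in Ctrl and at 505, 388, 434 and 340 FPKM in ScOE. Its difference of -0.19 was not called (adjusted p = 0.600), and with equal totals it was 0.68 and called as a rise (adjusted p = 0.0423). For GstD2 the values were 58.4, 56.0 and 84.9 FPKM in Ctrl and 42.3, 48.1, 50.7 and 15.6 FPKM in ScOE. The GstD2 groups did not overlap, but the difference of -0.85 ± 0.41 did not pass (adjusted p = 0.144), and with equal totals it was 0.

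The remaining delta genes did not pass the test. GstD8 was at 0.238, 2.91 and 8.97 FPKM in Ctrl and at 5.55, 11.2, 12.5 and 9.37 FPKM in ScOE. Its difference of 1.50 ± 0.65 did not pass as deposited (adjusted p = 0.111), and passed without Ctrl 3 (2.22, adjusted p = 0.0177), with equal totals (2.14, adjusted p = 0.0113) and with library weights (1.42, adjusted p = 0.0127). The library weights were 0.255, 4.67 and 0.613 for Ctrl 1 to 3, so the Ctrl side of that fit rests mostly on Ctrl 2. GstD10 was at 4.07, 16.9 and 36.4 FPKM in Ctrl and at 14.9, 50.8, 32.7 and 23.7 FPKM in ScOE, with overlapping ranges and no call (0.94, adjusted p = 0.323). With equal totals GstD10 passed (1.74, adjusted p = 0.0491). GstD9 was at 86.1, 69.3 and 116 FPKM in Ctrl and at 64.7, 150, 119 and 40.4 FPKM in ScOE, so the ScOE libraries lay on both sides of the Ctrl libraries. GstD7 stayed between 0.174 and 6.17 FPKM over all libraries and was not called (adjusted p = 0.470).

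**Figure D3:**
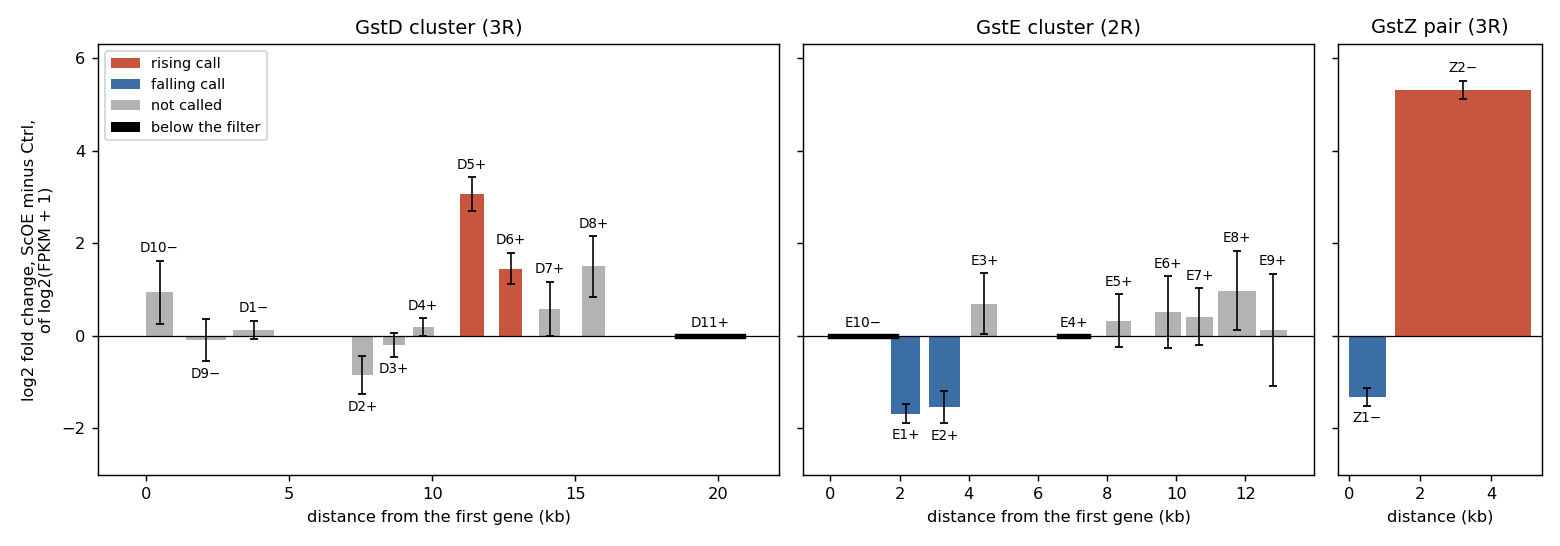
Log2 fold change at the deposited scale of the members of the delta cluster, the epsilon cluster and the zeta pair against distance from the first gene in kb; each bar spans its gene, error bars are SE (n = 3 and 4), signs give the strand, and black marks are genes below the filter. GstD5 (3.06) and GstD6 (1.45) stand beside GstD4 (0.18, not called), and GstE1 (-1.68) and GstE2 (-1.53, not called with equal totals) beside GstE3 (0.69, not called).

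In the epsilon class 5 of 11 tested genes fell and none rose at the deposited scale, where 21.3% of all tested genes fell and 17.6% rose. With so few genes the class counts say little against these shares. GstE1 (chromosome 2R, 18398393 to 18399223, plus strand) and GstE2 (18399486 to 18400375, plus strand) are next to each other in the epsilon cluster, which spans 13.2 kb. GstE1 was at 84.1, 131 and 141 FPKM in Ctrl and at 38.3, 36.2, 37.6 and 30.4 FPKM in ScOE. The ScOE libraries were tightly grouped below all Ctrl libraries, and the means of 119 ± 30.3 and 35.6 ± 3.58 FPKM differed 3.33-fold. GstE1 changed by -1.68 ± 0.20 on the log2 scale (adjusted p = 0.000744, limma), and it stayed called with equal totals (-0.82, adjusted p = 0.0165). GstE2 was at 9.37, 15.2 and 16.3 FPKM in Ctrl and at 7.37, 4.02, 3.62 and 2.06 FPKM in ScOE, without overlap. Its log2 fold change was -1.53 ± 0.35 (adjusted p = 0.0120), and it was not called with equal totals (-0.78, adjusted p = 0.0800) or with the replicate number as a block (-1.30, adjusted p = 0.0544).

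The other 3 falling epsilon genes lie elsewhere on 2R. GstE11 (18503608 to 18505025, plus strand) was at 88.5, 63.2 and 93.1 FPKM in Ctrl and at 32.1, 22.8, 27.1 and 28.4 FPKM in ScOE. Its groups were far apart, with a log2 fold change of -1.52 ± 0.18 (adjusted p = 0.000744, limma), and the call stood under all 22 alternatives. GstE13 (9122125 to 9123309, plus strand) was at 72.9, 72.6 and 65.5 FPKM in Ctrl and at 39.5, 30.6, 39.9 and 20.3 FPKM in ScOE. It fell by 1.13 ± 0.24 on the log2 scale (adjusted p = 0.00864) and was not called with equal totals (-0.28, adjusted p = 0.375). GstE12 (24766718 to 24768172, minus strand), the most abundant epsilon gene by mean FPKM, was at 426, 425 and 455 FPKM in Ctrl and at 323, 280, 303 and 386 FPKM in ScOE. No ScOE library reached the lowest Ctrl library, yet the GstE12 call was fragile. The log2 fold change of -0.44 ± 0.13 (adjusted p = 0.0375) kept its call in only 1 of the 7 fits that left out a library, lost it under every other scaling and became 0.43 with equal totals.

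The other tested genes of the epsilon cluster, GstE3 and GstE5 to GstE9, were not called as deposited, and these 6 genes shared an order of libraries. GstE3 was at 33.5, 114 and 249 FPKM in Ctrl and at 85.7, 208, 169 and 217 FPKM in ScOE. GstE6 was at 39.1, 132 and 381 FPKM in Ctrl and at 98.2, 189, 150 and 375 FPKM in ScOE. GstE9 was at 12.1, 41.6 and 202 FPKM in Ctrl and at 8.77, 64.0, 53.3 and 226 FPKM in ScOE. For these 3 genes the lowest library of each group was the one numbered 1, and the highest were Ctrl 3 and ScOE 4. GstE7 was at 26.8, 69.1 and 205 FPKM in Ctrl and at 66.2, 102, 113 and 116 FPKM in ScOE. GstE8 was at 3.14, 7.42 and 43.3 FPKM in Ctrl and at 10.1, 20.3, 19.0 and 55.8 FPKM in ScOE. GstE5 was at 4.90, 19.1 and 30.1 FPKM in Ctrl and at 9.97, 21.0, 23.4 and 22.8 FPKM in ScOE. Over the 6 genes, all 6 were lowest in Ctrl 1, highest in Ctrl 3 and lowest in ScOE 1, and 5 were highest in ScOE 4. The order was not particular to them. Ctrl 1 was lowest and Ctrl 3 highest for 17 of the 31 tested members, among them 7 of the 10 tested delta genes. This held for 19.5% of all tested genes.

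Between the groups these 6 differed by 0.13 (GstE9) to 0.98 (GstE8) on the log2 scale, with adjusted p from 0.409 to 0.943. The SEs of these differences were 0.57 (GstE5) to 1.22 (GstE9), so sizeable changes could have been missed. The highest Ctrl library exceeded the lowest by 6.14-fold to 16.7-fold, where the median of all tested genes was 1.47-fold. Their spread within groups lay at percentiles 93.6 to 98.3 of all tested genes. The enterocyte markers took the same order in each group (Ctrl 1, 2, 3 and ScOE 1, 3, 2, 4), as did the summed FPKM of the 6 genes (120, 384 and 1110, and 279, 605, 527 and 1013). In a fit that included the enterocyte marker level, added with results of these data in view, the 10 falling members stayed called and 7 members rose, where 25.4% of all tested genes fell and 20.3% rose. The additions were GstD8 (1.86, adjusted p = 0.00504), GstD10 (1.31, adjusted p = 0.0276), GstE3 (1.08, adjusted p = 0.00909) and GstE8 (1.46, adjusted p = 0.0235).

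**Figure D4:**
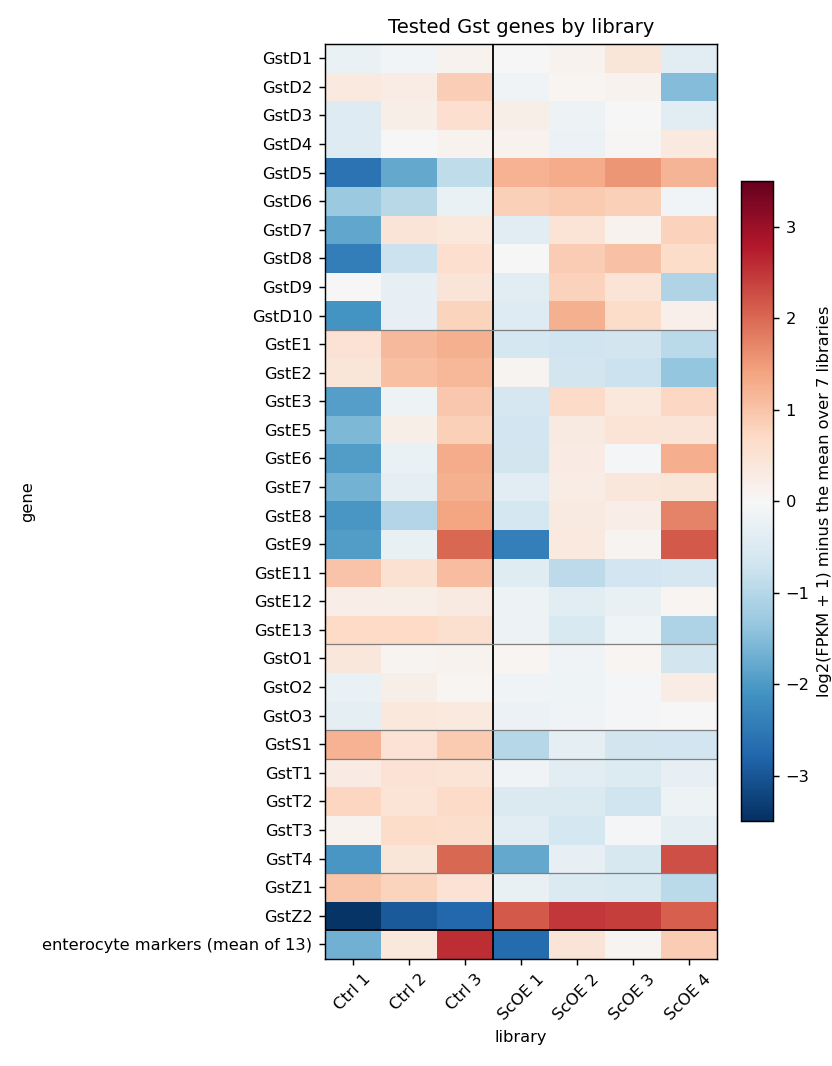
Deviation of each tested member's log2(FPKM + 1) from its mean over the 7 libraries, with members in rows by class, libraries in columns and the mean of 13 enterocyte markers as the last row; color gives the deviation on the log2 scale. GstZ2 and GstD5 separate the groups, while GstE3 and GstE5 to GstE9 are low in Ctrl 1 and high in Ctrl 3, whose levels differ 6.14-fold to 16.7-fold.

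The single sigma gene fell. GstS1 (2R, 17093246 to 17099501, minus strand), whose product is known to conjugate the lipid peroxidation product 4-hydroxynonenal and to be abundant in flight muscle, was at 244, 146 and 197 FPKM in Ctrl. In ScOE it was at 51.7, 80.8, 65.8 and 64.9 FPKM, all below the Ctrl libraries. The difference was -1.54 ± 0.21 on the log2 scale (adjusted p = 0.00155, limma), and with equal totals GstS1 was at -0.68 with an adjusted p of 0.0522. In ScOE 3, the library with the highest summed muscle markers, GstS1 lay inside the range of the other ScOE libraries. The part of muscle in the GstS1 levels was not tested.

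Of the 4 theta genes, which belong to a class found from flies to mammals, 3 fell, where 21.3% of all tested genes did. A count over 4 genes says little against that share. GstT1 (2R, 9605988 to 9607184, plus strand) was at 109, 126 and 125 FPKM in Ctrl and at 81.3, 67.2, 63.8 and 73.4 FPKM in ScOE. It fell by 0.74 ± 0.13 on the log2 scale (adjusted p = 0.00360, limma), and the value was 0.12 with equal totals. GstT2 (2R, 9607292 to 9608350, plus strand), just downstream, was at 32.0, 26.7 and 30.1 FPKM in Ctrl and at 12.9, 12.8, 11.1 and 16.6 FPKM in ScOE. Neither gene's groups overlapped. GstT2 fell by 1.10 ± 0.15 (adjusted p = 0.00144), and was at -0.28 and not called with equal totals (adjusted p = 0.281). It shares 223 bp with CG12926 on the opposite strand, which was at 14.4 to 20.1 FPKM in Ctrl and 119 to 203 FPKM in ScOE. Strand assignment of the reads is not given in the sources used here, so the values of the pair are uncertain.

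GstT3 (X, 20467455 to 20469796, plus strand) was at 32.0, 46.4 and 45.6 FPKM in Ctrl and at 22.8, 19.1, 27.9 and 23.4 FPKM in ScOE, again without overlap. Its log2 fold change was -0.79 ± 0.18 (adjusted p = 0.0124), and 0.05 with equal totals. GstT4 (X, 13404749 to 13409323, plus strand) was at 3.63, 24.5 and 75.7 FPKM in Ctrl and at 4.56, 14.5, 11.9 and 90.7 FPKM in ScOE. This member followed the library order of the epsilon genes above and was not called (-0.22 ± 1.17, adjusted p = 0.897).

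The omega class, whose members elsewhere reduce dehydroascorbate and protein thiols and whose relative se makes an eye pigment precursor, had no called member as deposited. GstO3 (3L, 8518885 to 8520295, plus strand) was at 445, 719 and 714 FPKM in Ctrl and at 480, 514, 540 and 556 FPKM in ScOE, overlapping only through Ctrl 1. Its difference of -0.23 ± 0.19 did not pass (adjusted p = 0.380). GstO3 passed as a fall without Ctrl 1 (-0.46, adjusted p = 0.0247) and with library weights (-0.44, adjusted p = 0.0105). The sign was opposite with equal totals (0.64, adjusted p = 0.0475). GstO2 (3L, 8521429 to 8523501, minus strand) was at 231, 309 and 285 FPKM in Ctrl and at 250, 245, 259 and 325 FPKM in ScOE, and its groups overlapped. GstO2 was not called as deposited (-0.03, adjusted p = 0.904) but rose with equal totals (0.84, adjusted p = 0.0121). GstO1 (3L, 8523742 to 8524866, minus strand) was at 53.7, 42.9 and 44.1 FPKM in Ctrl and at 41.9, 37.0, 42.5 and 25.3 FPKM in ScOE, with no overlap and no call (-0.37, adjusted p = 0.192).

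The 4 members below the filter were at or near 0 in both groups. GstE14, which encodes Noppera-bo, an enzyme of ecdysteroid synthesis, reached at most 0.0683 FPKM in Ctrl and 0.0717 in ScOE. In Ctrl, GstD11 was listed at 0 throughout, and it reached 0.0995 FPKM in ScOE. GstE4 was at 0.203 to 0.302 FPKM in Ctrl and at most 0.182 in ScOE, and GstE10 was at 0.0802 to 0.490 and 0.203 to 0.830 FPKM. GstE10 overlaps GstE1 by 127 bp on the opposite strand, so its low reads cannot be assigned with certainty. GstO2, GstE9, GstE12 and GstE13 overlap neighbouring genes by 6 to 61 bp. Delta and epsilon neighbours are also similar in sequence, and how fragments that match several of them were split is not given in the sources used here.

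The summed level of the 35 members was 3431, 4305 and 5589 FPKM in Ctrl and 3602, 4043, 4323 and 4123 FPKM in ScOE. These sums overlap, and their log2 ratio of means (ScOE over Ctrl) was -0.14 as deposited, 0.06 without Ctrl 3 and 0.75 with equal totals. The 5 members with the highest levels, GstD1, GstO3, GstD3, GstE12 and GstO2, carried 59.8% to 70.3% of the sum in Ctrl and 60.6% to 75.3% in ScOE. None of them was called as deposited apart from GstE12. As shares of the family sum, which no scaling by 1 factor per library changes, zeta genes were 0.852%, 0.603% and 0.389% in Ctrl and 2.32%, 2.50%, 2.24% and 1.86% in ScOE. The sigma gene was 7.11%, 3.39% and 3.52% in Ctrl and 1.43%, 2.00%, 1.52% and 1.57% in ScOE. Both classes had separate ranges in the groups, zeta higher and sigma lower in ScOE. Delta genes were 38.8% to 42.3% in Ctrl and 33.7% to 52.4% in ScOE, epsilon genes 23.4% to 33.7% and 20.0% to 35.9%, and omega genes 18.7% to 24.9% and 19.5% to 22.0%, all with overlap. Theta genes were 4.95% to 5.20% in Ctrl and 2.65% to 3.38% in ScOE 1 to 3, while ScOE 4 lay at 4.95%.

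**Figure D5:**
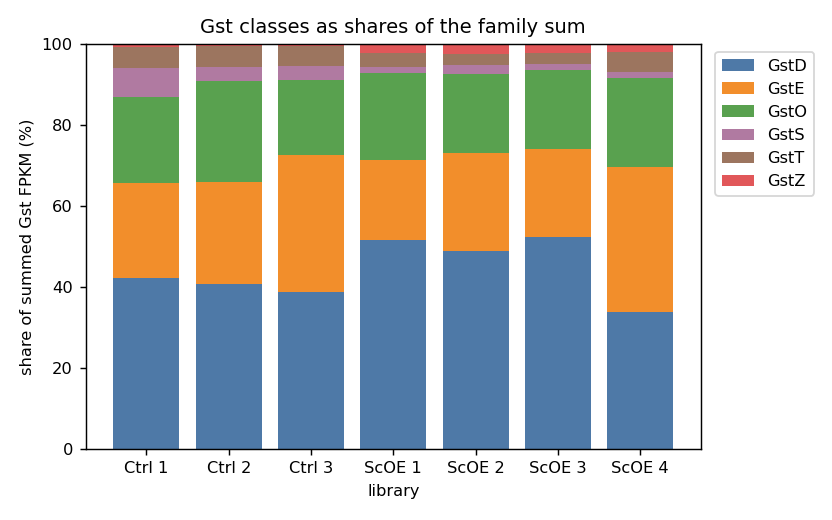
Share of the summed GST FPKM held by each class in each library, in percent. The zeta share is 0.389% to 0.852% in Ctrl and 1.86% to 2.50% in ScOE, and the sigma share is 3.39% to 7.11% and 1.43% to 2.00%.

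Genes that supply glutathione and use it beside the GSTs were read from a list of 28 matched genes of glutathione and thioredoxin metabolism, 22 of them tested. At the deposited scale 3 rose, 7 fell and 12 were not called, and the list's median was -0.38 on the log2 scale. The shares were 13.6% rising and 31.8% falling, against 17.6% and 21.3% of all tested genes. The number that fell was 3 with quantile normalization (17.3% of all tested genes fell there) and 5 with upper quartile or trimmed-mean scaling (14.9% and 19.2% of all tested genes). With equal totals 6 rose (27.3%, against 52.9% of all tested genes) and 1 fell (4.55%, against 3.33%). The 3 that rose were Trx-2, a thioredoxin (399 ± 167 to 1250 ± 91.5 FPKM, log2 1.72, adjusted p = 0.00210), Men, the NADPH-making malic enzyme (31.8 ± 4.93 to 74.9 ± 7.31 FPKM, 1.22, adjusted p = 0.000783), and Jafrac1, a peroxiredoxin (54.4 ± 11.3 to 135 ± 35.2 FPKM, 1.27, adjusted p = 0.00740). All 3 stayed called with equal totals, a scaling that raised values genome-wide. Of those that fell, GILT1, a thiol reductase of the lysosome, went from 175 ± 21.8 to 32.0 ± 10.1 FPKM (-2.46, adjusted p = 0.000343) and was the one that stayed called with equal totals. Pgd, an enzyme of the pentose phosphate pathway, fell by 0.83 on the log2 scale (adjusted p = 0.00418), and Prx5, a peroxiredoxin, by 0.68 (adjusted p = 0.00582), while with equal totals these were at -0.01 and 0.19.

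Both subunits of glutamate-cysteine ligase, which makes the first step of glutathione synthesis and was singled out after its values were seen, were lower at the deposited scale. Gclm, the modifier subunit, was at 112, 210 and 299 FPKM in Ctrl and at 65.2, 93.8, 89.8 and 79.4 FPKM in ScOE (-1.23, adjusted p = 0.0204). Gclc, the catalytic subunit, was at 29.8, 22.1 and 24.0 FPKM in Ctrl and at 13.2, 19.4, 14.5 and 20.1 FPKM in ScOE (-0.57, adjusted p = 0.0468). Neither gene's groups overlapped, and with equal totals neither was called (-0.37 and 0.26). Gclc was also not called with quantile normalization (adjusted p = 0.0850), upper quartile scaling (adjusted p = 0.135), trimmed-mean scaling (adjusted p = 0.0743) or the enterocyte marker covariate (adjusted p = 0.0582).

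Among 6 regulators around CncC and its inhibitor Keap1, 3 fell, none rose and 3 were not called as deposited, with a median of -0.29. With so few genes these counts say little against the 21.3% of all tested genes that fell, and 1 fell with quantile normalization and 2 with upper quartile or trimmed-mean scaling. With equal totals 3 rose, beside 52.9% of all tested genes, and none fell. The gene for CncC itself, cnc, went from 243 ± 33.3 to 131 ± 8.18 FPKM (-0.88, adjusted p = 0.00195), and Keap1 from 13.1 ± 0.687 to 9.65 ± 1.26 FPKM (-0.41, adjusted p = 0.0430). The third, crc, the fly ATF4, fell by 0.75 on the log2 scale (adjusted p = 0.00749). With equal totals cnc was at -0.01, crc at 0.12 and Keap1 at 0.39, none of them called.

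Genes with a GST fold or activity but another name were counted apart, 5 of 7 of them tested. Of these 2 fell (40%, against 21.3% of all tested genes), none rose (against 17.6%) and 3 were not called, with a median of -0.25. With equal totals 3 rose (60%, against 52.9%) and none fell (against 3.33%). With quantile normalization 1 fell (20%, against 17.3%). Mgstl, the membrane-bound microsomal GST, was at 145, 267 and 297 FPKM in Ctrl and at 74.1, 93.1, 88.6 and 110 FPKM in ScOE (-1.31, adjusted p = 0.00764). Ef1gamma, a subunit of the translation elongation factor, fell by 1.05 on the log2 scale (adjusted p = 0.00952). With equal totals Mgstl was at -0.45 and Ef1gamma at -0.18, and neither was called.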

How the data were processed

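The authors deposited FPKM per gene, a level relative to transcript length and to all mapped fragments, for each of the 7 libraries. The tools, per the submitters' processing notes, were TopHat2 2.0.10 and Cufflinks 2.2.1 with build BDGP6. Scaling between libraries and strand assignment are not given in the sources used here, FPKM keeps no read numbers, so depth is unknown and no counting interval can be given, and amplification before sequencing can add to the spread between libraries. All columns of per-library values were matched to labels.

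Groups were compared in R 4.3.3 by limma 3.58.1, two-sided and with a variance trend, using log2 of FPKM plus a pseudocount of 1. The filter kept the 8421 of 17481 genes that reached 1 FPKM in 3 libraries or more, and p-values were adjusted by Benjamini-Hochberg over all of them. Fold changes give ScOE minus Ctrl at that log2 scale, which understates changes of low genes. The fit was tested on simulated data, whose outcome is not reported here. Sums and shares got no test. Alternatives were other pseudocounts (0.1, 0.5, 5), filters, scalings (quantile, upper quartile, trimmed mean, equal totals), moderation, library weights, a replicate block, an enterocyte marker covariate, left-out libraries and stricter thresholds. The marker covariate is the mean log2 level of the enterocyte list.

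The members and all lists were chosen with earlier results of these data known. Every member was accounted for, and each related list was to name up to 3 rising and 3 falling genes with the smallest adjusted p. The cytochrome P450 list was narrowed after its values were seen, to leave out cyclophilins and pseudogenes. Of the list entries Gss1, Grx1t, LManII and apolpp were not matched. Coordinates are 1-based, from the Ensembl BDGP6 annotation. Python 3.11.15 and matplotlib 3.10.9 made the figures.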

Additional observations from a re-analysis of the deposited data

Results flagged for a closer look

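In the 31 tested members, the 4 ScOE libraries were searched for a lowest or highest library whose gap to the next, divided by the group's range, exceeded Dixon's critical value, which chance alone exceeds in about 1 of 20 groups. It was passed by 2 members, both through ScOE 4. GstD6 was at 1.70 FPKM in ScOE 4 and at 4.11 to 4.46 FPKM in the other 3 ScOE libraries, a gap of 0.876 of the range. GstT4 was at 90.7 FPKM in ScOE 4 and at 4.56 to 14.5 FPKM in the others, a gap of 0.885 of the range. Without ScOE 4 the log2 fold change of GstT4 was -1.01 and was not called, and that of GstD6 was 1.69 and stayed called. Over the 7 limma fits that left out a library, adjusted p was 0.388 or more for GstT4. For GstD6 it was 0.0479 or less.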

How the results depend on the processing

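The 1484 rising and 1796 falling genes became 4454 and 280 with equal FPKM totals, 929 and 959 at an adjusted p under 0.01, 786 and 664 with a 2-fold minimum, and 1185 to 1509 and 1317 to 1699 without 1 library. GST calls were 10 rising and 2 falling with equal totals, 7 rising with the marker covariate, and 3 to 4 rising and 9 to 10 falling without 1 library. The family sum, as a log2 ratio, was 0.75 with equal totals and -0.30 to 0.06 without 1 library. Same-numbered libraries correlated at 0.524, -0.041 and 0.082 in their deviations and Ctrl 2 and Ctrl 3 did not correlate best with their own number, so the numbers were not taken to pair libraries. A replicate block, to which ScOE 4 adds nothing, gave 1191 rising and 1349 falling genes and 3 rising and 9 falling members, without GstE2. Signs turned as follows, and the cause was not tested. With equal totals GstD2 was 0.00088, GstD3 0.68, GstD9 0.76, GstE12 0.43, GstO1 0.48, GstO2 0.84, GstO3 0.64, GstT1 0.12, GstT3 0.047, GstT4 0.57, and the GstE, GstO and GstT sums 0.63, 0.67 and 0.18. With quantile normalization GstD3 was 0.19, GstD9 0.17, GstO2 0.33 and GstO3 0.14. With upper quartile scaling GstD9 was 0.081 and GstO2 0.15, and with the trimmed mean GstO2 was 0.041. With library weights GstD4 was -0.016, GstD7 -0.11, GstD9 0.49 and GstE9 -0.0090, with the block GstD9 0.24 and GstE9 -0.57, and with the covariate GstO2 0.019 and GstT4 0.43. Without both libraries numbered 1, GstD4 was -0.014, GstD9 0.00081, GstE5 -0.10, GstE6 -0.028, GstE7 -0.11 and GstE9 -0.0045. Without 1 library the ranges were -0.47 to 0.043 for GstD3, -0.16 to 0.97 for GstD7, -0.38 to 0.24 for GstD9, -0.078 to 1.35 for GstE3, -0.37 to 0.83 for GstE5, -0.32 to 1.31 for GstE6, -0.29 to 1.15 for GstE7, -0.82 to 1.16 for GstE9, -0.15 to 0.061 for GstO2 and -1.31 to 0.72 for GstT4. The log2 fold change of sc was 4.37 to 6.51 over all alternatives, and it was called in each.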

Other observations

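Other detoxification genes were counted in the same fit, from lists chosen with earlier results of these data known. Of 47 tested cytochrome P450 genes, the phase I oxidases, 5 rose, 9 fell and 33 were not called, and the median on the log2 scale was -0.25. The share called was 29.8%, below the 39% of all tested genes. The lowest adjusted p among those that rose belonged to Cyp4ad1 (1.16 ± 0.663 to 10.4 ± 2.42 FPKM, log2 2.43, adjusted p = 0.000583), Cyp4d14 (1.03, adjusted p = 0.00766) and Cyp4e2 (1.56, adjusted p = 0.0229). Among those that fell it belonged to Cyp12e1 (19.0 ± 3.56 to 4.29 ± 1.21 FPKM, -1.93, adjusted p = 0.000535), Cyp6a13 (146 ± 29.0 to 42.6 ± 8.34 FPKM, -1.76, adjusted p = 0.000583) and Cyp6a17 (25.7 ± 12.3 to 1.68 ± 0.992 FPKM, -3.26, adjusted p = 0.00107). Cyp4ad1 had 1 Ctrl library and Cyp4d14 all 3 Ctrl libraries under 1 FPKM, so both passed the filter only with ScOE libraries and a rise was partly built into their selection. These 6 genes kept their direction and their call with equal FPKM totals. For those named as rising this adds little, since equal totals raised values genome-wide. With equal totals 11 P450 genes rose (23.4%, against 52.9% of all tested genes) and 5 fell (10.6%, against 3.33%).

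Of 11 tested UDP-glycosyltransferase genes, which attach sugars in phase II, 1 rose (9.09%), 5 fell (45.5%) and 5 were not called, with a median of -0.84. Of all tested genes 17.6% rose and 21.3% fell. With equal totals 2 rose (18.2%) and 3 fell (27.3%), against 52.9% and 3.33% of all tested genes. Ugt36Bc rose (11.0 ± 7.81 to 37.7 ± 8.88 FPKM, 1.85, adjusted p = 0.0107). Ugt86Dd was at 56.4, 13.4 and 31.3 FPKM in Ctrl and at 0.944, 2.22, 1.16 and 5.93 FPKM in ScOE (-3.27, adjusted p = 0.00449). Ugt86Di fell by 1.64 on the log2 scale (adjusted p = 0.000305) and Ugt86Da by 0.95 (adjusted p = 0.00220), of which Ugt86Da was not called with equal totals (-0.09).

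Of 7 tested export pumps of glutathione conjugates and other compounds, 1 rose (CG11897, 1.33, adjusted p = 0.0171), 2 fell (CG5789, -1.08, adjusted p = 0.000483, and CG7627, -0.69, adjusted p = 0.00891) and 4 were not called, with a median of 0.41. The shares were 14.3% rising and 28.6% falling, against 17.6% and 21.3% of all tested genes. With equal totals 3 rose (42.9%) and none fell, against 52.9% and 3.33% of all tested genes. There CG5789 was at -0.38 and CG7627 at 0.06.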
